A study of Mus musculus with 14 samples.

Results

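The transcripts described here encode parts of the sperm tail axoneme and of the transport machinery that builds it: axonemal dynein chains, tektins, radial spoke proteins and subunits of intraflagellar transport (IFT). The members are the genes whose symbol starts with Dnahc, Dnaic, Dnalc, Dnali, Tekt or Rsph, or with Ift followed by a digit. The rule uses symbols only, but it was chosen with earlier results of these data known. This gave 38 genes out of 27024 features of the joint expression table, of which 21905 carry a gene symbol. They comprise 10 dynein heavy chains, 5 dynein intermediate or light chains, 5 tektins, 6 radial spoke genes, 2 IFT-A subunits and 10 IFT-B subunits. Several have been renamed since the files were made (Dnahc8 is now Dnah8, Dnalc1 is Dnal1 and Dnalc4 is Dnal4), and the symbols of the files are kept below.

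RNA was sequenced in 14 libraries of 9 groups from adult C57BL/6 mouse testis, labelled as at least 6 weeks old, at each step of a chromatoid body preparation, the granule beside the nucleus of round spermatids that gathers RNA and the piRNA machinery. The purified material is the MVH IP (3 libraries), taken down with an antibody against MVH, the germ cell helicase encoded by Ddx4. It was made from pellet2 (1 library), which is pellet1 (1 library) sonicated again and passed through a filter. Pellet1 and the supernatant (1 library) are the fractions of a formaldehyde-crosslinked, sonicated tubule cell lysate (1 library) after centrifugation, and crosslinking preceded every one of these 5 conditions. Round spermatids heterozygous for MIWI (hetMIWI, 1 library) and sorted round spermatids (2 libraries, of which 1 from RNA above 500 bp) were cells rather than fractions. The IgG (1 library) and ACR (3 libraries) precipitations were not analysed here, so RNA that the MVH antibody brought down and nonspecific carry-over cannot be told apart.

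The values are FPKM, fragment counts scaled by transcript length and by library size, with 1 deposited value per condition even where the labels list several libraries. The ratios below therefore carry no standard deviation, n or p-value, depth per library is unknown, and the only p- and q-values printed are those of the authors' deposited table. Unless said otherwise, values come from the joint table of 5 conditions. Each difference is a log2 ratio of (FPKM + 1), a scale that understates the change of genes at low levels, and genes with a mean of at least 1 FPKM over both conditions counted as higher or lower from 2-fold on. Ratios are also given centred, which means after subtraction of the median log2 ratio of all genes tested. In whole tissue and in fractions, fewer cells of a type and less RNA per cell cannot be told apart.

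An axoneme is a ring of microtubule doublets around a central pair, and it bends because dynein arms on each doublet walk along the next. Outer and inner dynein arms each carry large heavy chain motors on intermediate and light chains, tektin filaments run inside the doublets, and radial spokes connect the arms with the central pair. The IFT-B complex carries cargo outward and IFT-A is needed for the return, and spermatids build the tail with this machinery. Sperm tails use some subunits in place of those of motile airway cilia: DNAH8 and DNAH17 form the outer arms of sperm where DNAH5, DNAH9 and DNAH11 do so in airways, and RSPH6A takes the place of RSPH4A in the spoke head.

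In the joint table the genes of the sperm tail forms were high and those of the airway forms low, an order that for Dnahc17 and Dnahc9 in MVH IP rests on that table alone. Dnahc8 (mm9 chr17:30763881-31012209), an outer arm motor of sperm, had an FPKM of 352 in lysate, 364 in the supernatant, 152 in pellet1, then 205 in pellet2 and finally 118 in MVH IP. Dnahc17 (chr11:117848171-117990533), its partner in the sperm outer arm, was at 111, 117, 57.8, 71.4 and 49.98 FPKM in the same order of conditions. Both were highest in supernatant and lysate and lowest in MVH IP. Dnahc5 (chr15:28133521-28401800), the airway counterpart of Dnahc8, had an FPKM of 1.45 in lysate, 1.497 in the supernatant, 5.06 in pellet1, then 4.08 in pellet2 and finally 6.59 in MVH IP. The level of Dnahc8 per length was thus 18.0 times that of Dnahc5 in MVH IP and 243 times in lysate. Dnahc9 was at 5.69 FPKM in MVH IP against 1.84 in lysate, and Dnahc11 was at 1.37 and 0.23, so that Dnahc17 was 8.78 times the level of Dnahc9 in MVH IP and 60.5 times in lysate. The separate MVH IP gene table lists Dnahc9 at 49.3 FPKM and does not list Dnahc17, so the order of these genes in MVH IP is that of the joint table only. Of all features with at least 5 FPKM in the joint MVH IP column, 32.4% were not listed there, so absence gives no level. The separate lysate table lists Dnahc17 at 47.3 FPKM and does not list Dnahc9. Rsph4a was listed at 0 in MVH IP and lay between 0.24 and 0.63 FPKM in the other 4 conditions, while Rsph6a (chr7:19640036-19659796) was at 31.5 FPKM in MVH IP against 64.2 in lysate. Markers of multiciliated cells of the ducts, of which 3 of 5 are in the table, were Ccdc67 at 145 FPKM in MVH IP against 89.1 in lysate, Ccno at 3.91 and 0.36, and Foxn4 at 0 and 0.15. They summed to 149 FPKM in MVH IP against 89.6 in lysate, nearly all of it Ccdc67, and their part in the airway-type values was not tested.

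Most of the other members stood among the higher genes of the testis. In lysate the tektins held percentiles between 91.5 (Tekt5) and 98.3 (Tekt2) of all symbol features above 0 FPKM, and in MVH IP between 93.1 (Tekt4) and 97.9 (Tekt2). Rsph1 (chr17:31391965-31414301), a spoke head protein, had the highest level of the 38 genes, with an FPKM of 738 in lysate, 855 in the supernatant, 294 in pellet1, then 537 in pellet2 and finally 814 in MVH IP. Its pellet1 value was the lowest of the 5. The median member was at 73.3 FPKM in MVH IP against 54.0 in lysate, against 10.7 and 3.53 for all symbol features above 0 FPKM. Round spermatid markers summed to 2035 FPKM in MVH IP against 1136 in lysate with none at 0, and late spermatid markers to 35250 and 42499, so the labelled tissue carried its defining genes.

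**Figure D1:**
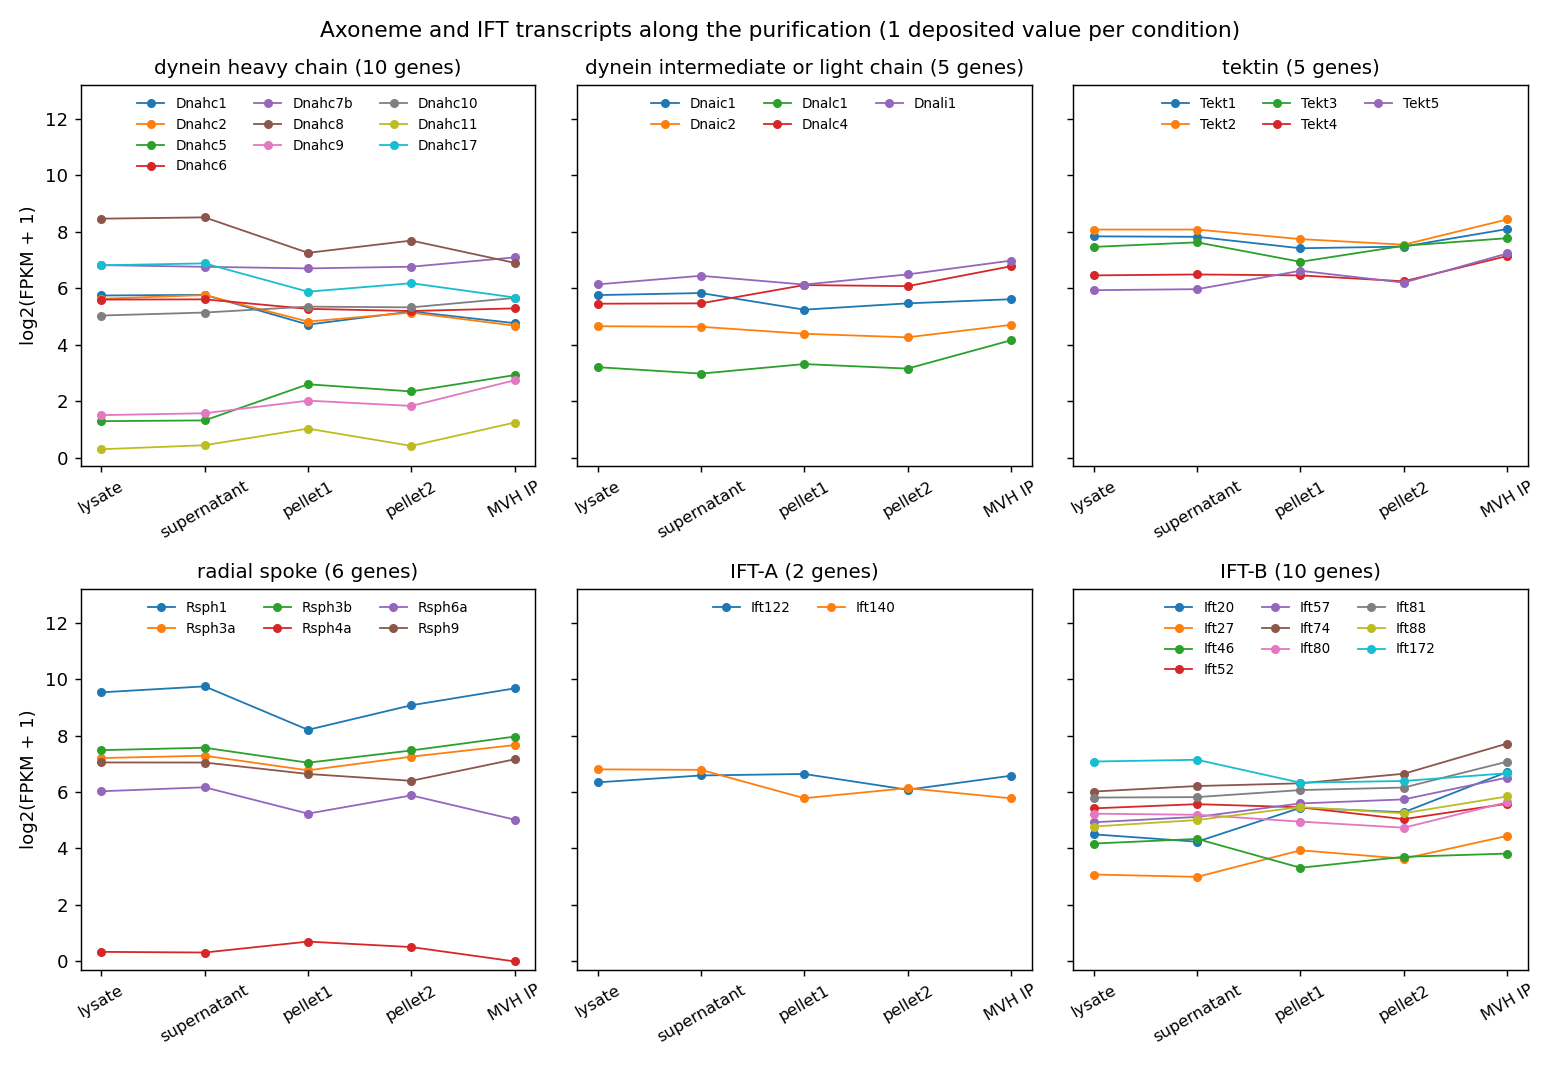
FPKM of the 38 genes in the 5 conditions of the joint table, on a log2(FPKM + 1) axis, by class; each point is the single deposited value of a condition. The sperm outer arm genes Dnahc8 and Dnahc17 are lower in MVH IP than in lysate, 6 IFT-B genes are higher by 2-fold or more (1 after centring), and Dnahc5, Dnahc9, Dnahc11 and Rsph4a lie far below their classes. Of all genes tested, 47.3% are higher by 2-fold or more in MVH IP than in lysate (18.7% after centring).

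The promoters of the members were searched for the core of the X-box, the sequence bound by RFX factors, which are known activators of cilium genes. RefSeq (GRCm38.p6) promoters, 250 bases before to 50 after a start, matched 33 of the 38 genes and gave 36 promoters. The letters GTTGCC on either strand were in 13 of the 36 member promoters (36.1%, 12 genes) and in 12.5% of all 32851 promoters. The longer GTTGCCAT, which contains it, was in 1 of 36 (2.78%, Tekt1) and in 1.35% of all promoters. The promoters of Tekt1, Tekt2, Ift57 and Dnahc10 are shown because each holds the core at 2 places; capitals mark it, as GTTGCC on the gene's strand or GGCAAC where it lies on the opposite strand. Counted from 0 at the start of transcription, the matches begin at -35 and -15 in Tekt1, -96 and -22 in Tekt2, -87 and -60 in Ift57, and -20 and 10 in Dnahc10. Tekt2 has 3 listed starts: from the second the same matches lie at -138 and -64, and the window of the third holds none.
Tekt1 (chr11:72361833-72362132, minus strand): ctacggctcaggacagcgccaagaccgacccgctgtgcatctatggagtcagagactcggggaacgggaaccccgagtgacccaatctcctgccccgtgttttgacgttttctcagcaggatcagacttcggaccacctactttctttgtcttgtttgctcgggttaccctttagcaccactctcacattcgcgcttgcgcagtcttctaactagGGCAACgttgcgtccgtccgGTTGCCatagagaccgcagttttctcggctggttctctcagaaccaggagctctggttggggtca
Tekt2 (chr4:126325639-126325938, minus strand): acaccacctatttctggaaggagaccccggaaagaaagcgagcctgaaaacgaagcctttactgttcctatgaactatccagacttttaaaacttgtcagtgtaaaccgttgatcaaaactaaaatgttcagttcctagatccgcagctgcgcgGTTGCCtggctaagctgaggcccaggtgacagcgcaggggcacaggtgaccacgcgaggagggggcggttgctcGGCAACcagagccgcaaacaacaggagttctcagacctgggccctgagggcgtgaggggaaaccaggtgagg
Ift57 (chr16:49699044-49699343, plus strand): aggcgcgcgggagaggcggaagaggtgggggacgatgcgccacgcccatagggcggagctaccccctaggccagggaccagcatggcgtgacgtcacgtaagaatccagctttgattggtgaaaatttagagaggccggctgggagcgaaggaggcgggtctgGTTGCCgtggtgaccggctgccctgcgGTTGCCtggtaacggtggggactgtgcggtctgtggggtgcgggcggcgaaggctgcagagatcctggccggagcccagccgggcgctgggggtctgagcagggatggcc
Dnahc10 (chr5:124724835-124725134, plus strand): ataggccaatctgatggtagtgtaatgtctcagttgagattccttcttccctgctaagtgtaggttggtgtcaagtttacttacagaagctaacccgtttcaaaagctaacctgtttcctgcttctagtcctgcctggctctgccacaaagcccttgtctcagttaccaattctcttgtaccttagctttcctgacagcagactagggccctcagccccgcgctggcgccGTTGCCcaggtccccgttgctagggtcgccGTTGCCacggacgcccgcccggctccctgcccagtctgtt
A match is a description of letters and not evidence of binding. Among the genes with 2 matches, the log2 ratio of MVH IP over lysate was 1.58 for Ift57, 0.62 for Dnahc10, 0.36 for Tekt2 and 0.26 for Tekt1, and Dnahc8 and Ift20, at the 2 ends of that comparison in the joint table, had no match in this window.

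MVH IP against lysate asks which of these transcripts accompany the purified chromatoid body relative to the cells it came from. Of the 38 genes, 36 passed the filter on low values (Dnahc11 and Rsph4a did not), 10 were higher in MVH IP, 4 were lower and 22 were neither. In all genes tested, 47.3% were higher and 7.53% lower, so the share of higher members, 27.8%, was under the background. The members' median log2 ratio was 0.33 against 0.92 for all genes tested, and 25 of 36 lay below that median. After centring, 1 was higher (Ift20) and 10 were lower, where 18.7% of all genes tested were higher and 20.6% lower. Sertoli cell markers (8 of 9 in the table) summed to 323 FPKM in MVH IP against 64.5 in lysate (Amh at 0 in both) and spermatogonial markers to 70.9 and 14.8 (Sall4 at 0 in lysate). Leydig cell markers summed to 213 FPKM in MVH IP against 282 in lysate and meiotic spermatocyte markers to 317 and 344. Genes within these lists went both ways. Hsd3b1 was at 47.7 FPKM in MVH IP against 15.4 in lysate, and Cyp17a1 at 84.5 and 139.5. Sycp1 was at 40.2 and 21.8 FPKM, and Sycp2 at 45.0 and 83.3. The part of other cells in the members' ratios was not tested.

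The dynein heavy chains differed among themselves. Of the 9 that passed the filter, Dnahc5 and Dnahc9 were higher in MVH IP and Dnahc8 and Dnahc17 lower, with a class median of -0.31. Of all genes tested, 47.3% were higher and 7.53% lower. Dnahc5 (6.59 FPKM in MVH IP against 1.45 in lysate) and Dnahc9 (5.69 and 1.84) were at low levels and were not tested by the authors in this pair. At a minimum mean of 5 FPKM, 8 members were higher where 10 were before. After centring no heavy chain was higher and 5 were lower, where 18.7% of all genes tested were higher and 20.6% lower. Dnahc8 had the lowest ratio of the 36 genes, 118 FPKM in MVH IP against 352 in lysate, a log2 ratio of -1.56 (-2.48 centred), at the 4.5th percentile of all genes tested. Dnahc17 had a log2 ratio of -1.14, or -2.06 centred. Dnahc1, an inner arm motor, had an FPKM of 52.6 in lysate, 53.5 in the supernatant, 25.2 in pellet1, then 35.2 in pellet2 and finally 26.2 in MVH IP, and its log2 ratio of -0.98 stood just inside the 2-fold bound. Dnahc2, another inner arm motor, had -0.95. The inner arm heavy chain Dnahc7b had an FPKM of 112 in lysate, 107 in the supernatant, 103 in pellet1, then 108 in pellet2 and finally 136 in MVH IP, a log2 ratio of 0.27. Dnahc10 (0.62) was above 0 and Dnahc6 (-0.31) below. In the separate tables, 6 heavy chains could be compared, of which Dnahc10 (1.82) and Dnahc7b (1.28) were higher and none lower, where 78.9% of all genes tested were higher. Dnahc8 was at -0.52 there, still the lowest member. After centring there, none was higher and 4 were lower, where 23.4% of all genes tested were higher and 21.8% lower. Dnahc7b shares 38.5% of its 50-base words with Dnah7c and 30.4% with Dnah7a, so its reads may belong in part to those copies, and Dnahc17 overlaps Pgs1 with strand use not given in the sources used here.

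Among the intermediate and light chains only Dnalc4 was higher in MVH IP by the 2-fold call, and none was lower, while after centring none was higher and Dnaic1 was lower. Dnalc4 had an FPKM of 42.8 in lysate, 43.2 in the supernatant, 68.2 in pellet1, then 66.4 in pellet2 and finally 109 in MVH IP, a log2 ratio of 1.33. Dnali1, the inner arm light intermediate chain, was at 69.4, 85.9, 69.1, 88.9 and 125 FPKM in the same order, a ratio of 0.84 that was -0.08 after centring. Dnaic1, an outer arm intermediate chain, was at 53.1, 55.9, 36.8, 43.2 and 47.9 FPKM and had a ratio of -0.15. Dnaic2, the other intermediate chain of that arm, had 0.05, and Dnalc1, an outer arm light chain, 0.95. Dnalc4 and Dnalc1 were above the median of all genes and the other 3 below it. Taken from the separate tables, Dnalc4 (2.97), Dnaic2 (1.23) and Dnaic1 (1.06) were all called higher, where 78.9% of all genes tested were higher. None of them was called after centring. Dnali1 overlaps Gnl2 and Dnaic1 overlaps Enho.

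Of the 5 tektins, Tekt5 was higher in MVH IP and none was lower, where 47.3% of all genes tested were higher and 7.53% lower. After centring none was called in either direction, where 18.7% of all genes tested were higher and 20.6% lower. Tekt5, found in sperm flagella, was at 149 FPKM in MVH IP against 60.04 in lysate, a log2 ratio of 1.299 and a rank at the 62.9th percentile of all genes tested. Tekt2 had an FPKM of 269 in lysate, 269 in the supernatant, 213 in pellet1, then 186 in pellet2 and finally 346 in MVH IP, a ratio of 0.36. Tekt1 was at 228, 225, 169.8, 177 and 273 FPKM in the same order, and Tekt3 at 176, 197, 121, 181 and 218. Each of these 3 structural genes was highest in MVH IP, with ratios between 0.26 and 0.36 that lay under the median of all genes. Tekt4 had 0.69. With the separate tables all 5 tektins were called higher, from 1.27 (Tekt3) to 2.43 (Tekt5), where 78.9% of all genes tested were higher. None was called after centring.

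In the joint table none of the 5 spoke genes that passed the filter was higher in MVH IP and Rsph6a was lower, also after centring. The separate tables had 3 higher, where 78.9% of all genes tested were higher, and Rsph6a at a ratio of 0.23 (-1.80 centred). Rsph6a had an FPKM of 64.2 in lysate, 70.9 in the supernatant, 36.7 in pellet1, then 57.9 in pellet2 and finally 31.5 in MVH IP, a log2 ratio of -1.01, barely past the bound. Rsph1 was at 814 FPKM in MVH IP against 738 in lysate, a ratio of 0.14, and Rsph9, also of the spoke head, had 0.11. The spoke stalk genes Rsph3a (chr17:8138479-8172421) and Rsph3b (chr17:7109065-7152705) are near copies that share 74.0% and 73.4% of their 50-base words. Rsph3b had an FPKM of 178 in lysate, 189 in the supernatant, 130.4 in pellet1, then 176 in pellet2 and finally 248 in MVH IP, and Rsph3a was at 146, 155, 108, 151 and 202 FPKM. Their ratio to each other stayed between 1.17 and 1.23 in all 5 conditions, and the sources used here do not say how reads common to both were assigned.

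The IFT-B genes were the class with the most higher calls, 6 of 10 and none lower, where 47.3% of all genes tested were higher and 7.53% lower. Their median log2 ratio was 1.17 against 0.92 for all genes tested. After centring 1 was higher and 2 were lower, where 18.7% of all genes tested were higher and 20.6% lower. By the separate tables, 8 of 9 were higher and none lower, where 78.9% of all genes tested were higher and 0.473% lower. With centring there, 4 were higher and 1 was lower, where 23.4% of all genes tested were higher and 21.8% lower. Ift20 (chr11:78349938-78354975), which is also known at the Golgi, had an FPKM of 21.6 in lysate, 17.9 in the supernatant, 42.5 in pellet1, then 38.0 in pellet2 and finally 104 in MVH IP. Its log2 ratio of 2.21 (1.29 centred) was the highest of the 36 genes past the filter in the joint table and stood at the 87.5th percentile of all genes tested. In the separate tables Ift20 had 3.65, below Ift80 (4.67), Ift81 (4.59) and Ift57 (4.22). Ift74 (chr4:94281211-94359924) and Ift81 encode partners that bind tubulin together. Ift74 was at 63.7, 73.1, 78.2, 99.2 and 209 FPKM from lysate to MVH IP, a ratio of 1.70, and Ift81 at 54.8, 55.5, 66.1, 70.4 and 134 FPKM, a ratio of 1.27. Both were lowest in lysate and highest in MVH IP. Ift57 was at 29.4, 33.7, 47.3, 52.4 and 90.1 FPKM, a ratio of 1.58, and Ift27, a small GTPase, at 7.45, 6.97, 14.3, 11.46 and 20.8 FPKM, a ratio of 1.37. Ift88 had 1.07. Lower ratios in the joint table were those of 4 genes. Ift172, the largest IFT-B subunit, was at 134, 140.1, 79.4, 82.9 and 100.4 FPKM with a ratio of -0.42, Ift46 had -0.35, and Ift52 and Ift80 had 0.16 and 0.41. For Ift46 and Ift80 this turned with the file: in the separate tables Ift46 was at 58.8 FPKM in MVH IP against 8.12 in lysate (2.71) and Ift80 at 433 and 16.0, both above the median of all genes there, 2.03, while Ift52 (1.67) and Ift172 (0.63) stayed below it. Ift74 overlaps Lrrc19 and Mir872.

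The 2 IFT-A genes stood apart from each other. Ift140 (chr17:25153031-25236442) had an FPKM of 111 in lysate, 109 in the supernatant, 54.0 in pellet1, then 69.4 in pellet2 and finally 53.8 in MVH IP, a log2 ratio of -1.03. Ift122 was at 80.1, 95.0, 98.7, 66.7 and 94.4 FPKM in the same order, a ratio of 0.24. Ift140 overlaps Tmem204. In the separate tables both were higher, as were 78.9% of all genes tested. Ift140 had a ratio of 1.22 (-0.81 centred) and Ift122, at 395 FPKM in MVH IP against 35.6 in lysate, had 3.43 (1.40 centred).

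**Figure D2:**
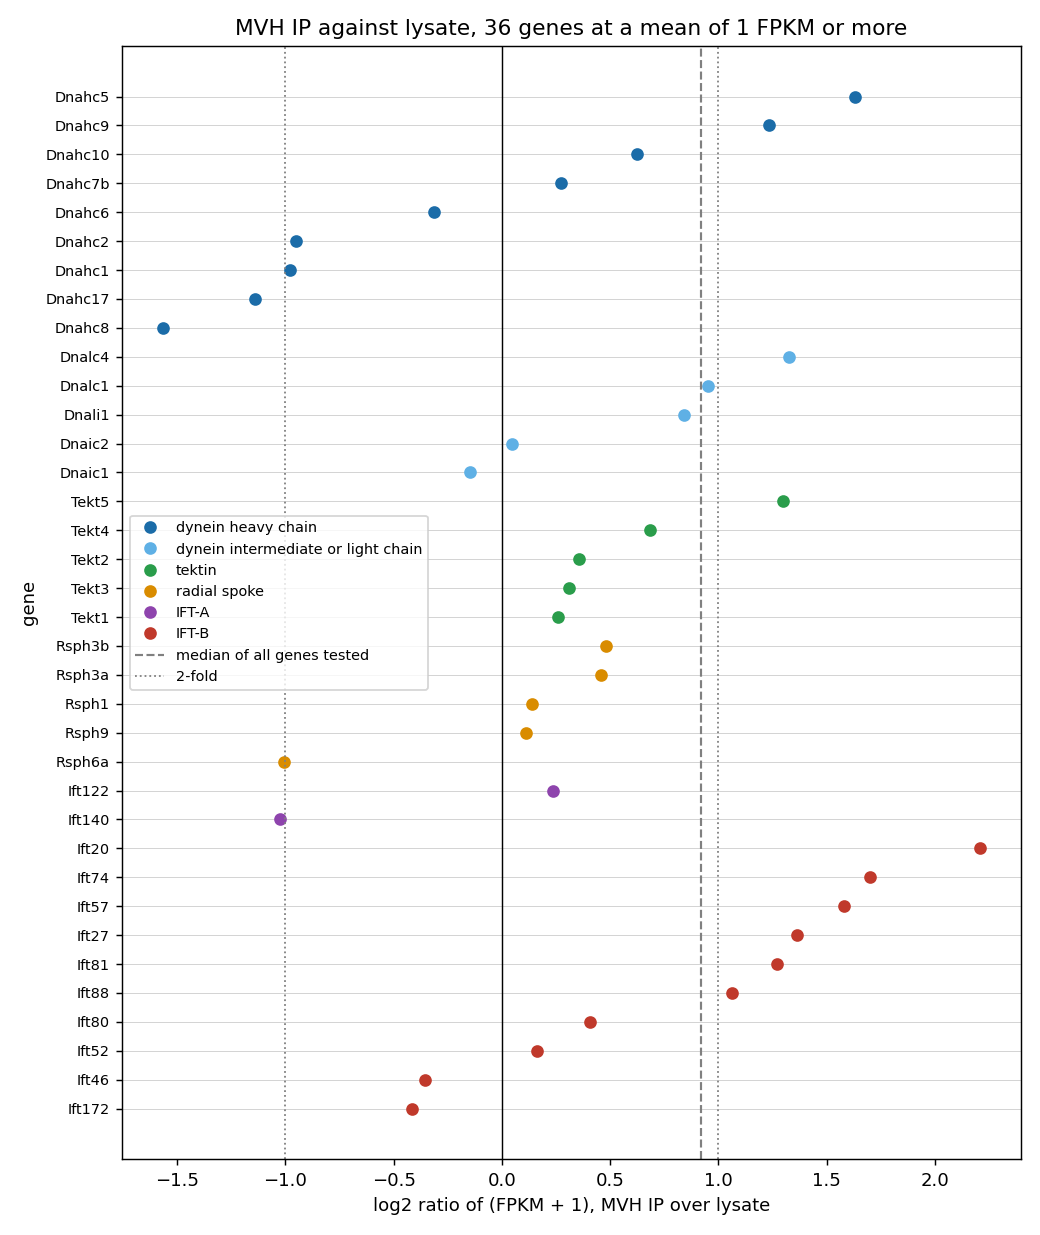
Log2 ratio of (FPKM + 1) of MVH IP over lysate for the 36 genes past the filter, by class; the dashed line is the median of all genes tested (0.92) and dotted lines mark 2-fold. All values are from the joint table. The IFT-B genes run from -0.42 to 2.21, and Dnahc8 at -1.56 is lowest.

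The authors' deposited table gives a Cuffdiff q-value for each pair of conditions, and none of the 38 genes had q under 0.05 in any of the 10 pairs. Of 380 member rows, 344 were tested by the authors, and 23 of those had an unadjusted p under 0.05. In the authors' deposited table, MVH IP and lysate were compared for 34 members, 0 with q under 0.05 and 6 with an unadjusted p under 0.05, while 747 of 10430 symbol features had q under 0.05. The smallest q of a member in that pair was 0.0892, for Ift74, in the authors' deposited table. The smallest in any pair was 0.0880, for Rsph1 between pellet1 and supernatant, in the authors' deposited table.

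Transcript length and the ratio were negatively correlated across members in some comparisons and not in others. Over the 36 genes, the Spearman correlation of the MVH IP over lysate ratio with the longest annotated coding transcript (GENCODE) was -0.37, against -0.10 over the 13084 genes tested that have a length. This is a correlation across genes, which share the same libraries and are no replicates, and it is given as a description. Without the heavy chains it was -0.34 over 27 genes. For MVH IP over pellet2 it was -0.50 against -0.19 over all genes, for pellet2 over lysate -0.25 against 0.08, for pellet1 over lysate -0.18 against 0.04, and for supernatant over lysate 0.05 against 0.07. In the separate tables it was -0.09 for MVH IP over round spermatids against -0.02 over all genes, and -0.51 for hetMIWI over round spermatids against -0.30. For round spermatids over lysate it was -0.17 against 0.17, and 0.35 over the 25 members other than heavy chains. The 9 heavy chains, all of transcripts above 8000 bases, had a median ratio of -0.31 where the 700 genes of that length had 0.72, and the 9 members between 1000 and 2000 bases had 0.69 where 2814 genes had 1.05. For MVH IP over lysate, in each length range with at least 6 members, the members' median lay under that of all genes. Dnahc5 and Dnahc9, with 15637 and 13798 bases, lay above the median of the genes of that length.

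**Figure D3:**
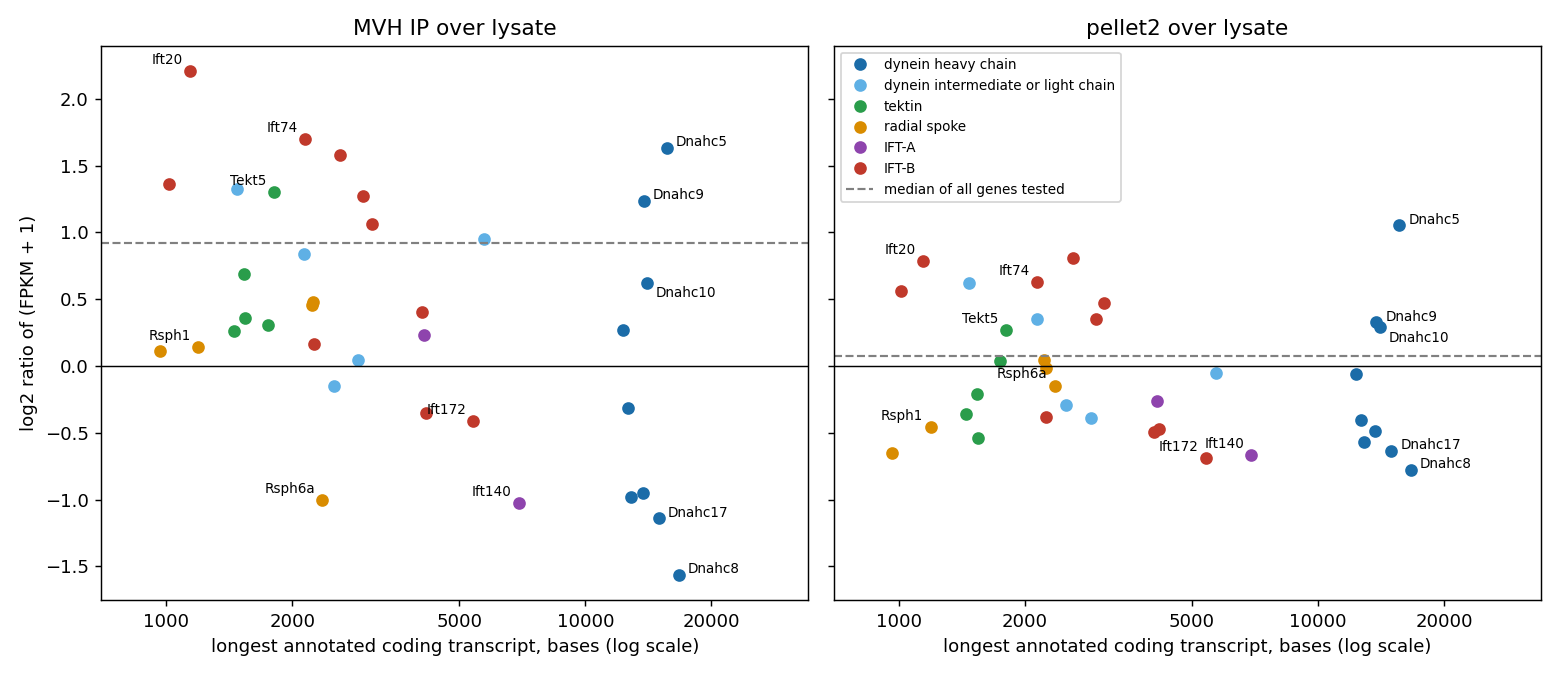
Log2 ratio of (FPKM + 1) against the longest annotated coding transcript in bases (log axis) for 36 genes, for MVH IP over lysate on the left and pellet2 over lysate on the right; the dashed line is the median of all genes tested. Ift20 and Ift74 are high on the left, and Dnahc8 and Dnahc17 are low in both panels.

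The fractions before the IP show where along the purification these values differ, and all 3 are set against the same lysate value. The supernatant was close to lysate: 0 of 36 members were called in either direction, where 0.751% of all genes tested were higher and 1.46% lower, and the members' ratios ran from -0.26 (Ift20) to 0.30 (Dnali1) with a median of 0.05 (all genes -0.01). In pellet1, 1 of 36 members was higher than in lysate (Dnahc5, log2 ratio 1.31) and 4 were lower, where 16.8% of all genes tested were higher and 9.41% lower. The lower ones were Rsph1 (-1.33), Dnahc8 (-1.21), Dnahc1 (-1.03) and Ift140 (-1.02), and the members' median was -0.27 against 0.07. Dnahc5 was at 5.06 FPKM in pellet1 against 1.45 in lysate. At a minimum mean of 5 FPKM, 0 members were higher in pellet1 and 4 lower. In pellet2, Dnahc5 alone was called higher than in lysate (1.05) and none lower, where 12.5% of all genes tested were higher and 7.21% lower; the members' median was -0.18 against 0.08. Dnahc5 was at 4.08 FPKM there, and at a minimum mean of 5 FPKM it was not tested.

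Set against pellet2, the material it was made from, MVH IP had 4 of 36 members higher and 0 lower, where 39.9% of all genes tested were higher and 5.78% lower. The 4 were Ift20 (log2 ratio 1.42), Ift74 (1.07), Tekt5 (1.03) and Dnalc1 (1.00). Dnalc1 was at 16.8 FPKM in MVH IP against 7.91 in pellet2. The members' median was 0.52 against 0.79 for all genes tested. After centring none was higher and 6 were lower, where 14.2% of all genes tested were higher and 13.7% lower: Rsph6a (-1.65), Dnahc8 (-1.58), Dnahc17 (-1.299), Dnahc2 (-1.26), Dnahc1 (-1.20) and Ift140 (-1.15). MVH IP is on top of both this comparison and the one with lysate, so they share its value.

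The deposited gene tables of single conditions, scaled apart and listing values from 5 FPKM upward, gave some members other levels. They list 34 of the 38 genes for MVH IP, 22 for hetMIWI round spermatids, 32 for round spermatids and 32 for lysate. For lysate the separate value was 0.35 to 0.52 times the joint one in all 32 genes, with a median of 0.425. For MVH IP the median was 0.978 but the range ran from 0.671 (Rsph9) to 8.86 (Ift80). Ift80 was at 433 FPKM in the separate MVH IP table and 48.8 in the joint one, Dnahc9 at 49.3 and 5.69, Dnalc1 at 103 and 16.8, Ift81 at 675 and 134, Ift46 at 58.8 and 13.1, Ift122 at 395 and 94.4, and Ift57 at 209.8 and 90.1. Dnahc17 and Dnali1, at 49.98 and 125 FPKM in the joint table, are not listed in the separate MVH IP table. The cause of these differences between 2 files of the same libraries was not tested, and levels of these 9 genes in MVH IP depend on the file. Larger separate values were found in all genes too: 7 of 34 members (20.6%) and 24.3% of all features in both tables lay 2-fold or more above the median ratio of all features. Of features with at least 5 FPKM in the joint MVH IP column, 2 of 36 members (5.56%) and 32.4% of all were not listed.

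**Figure D4:**
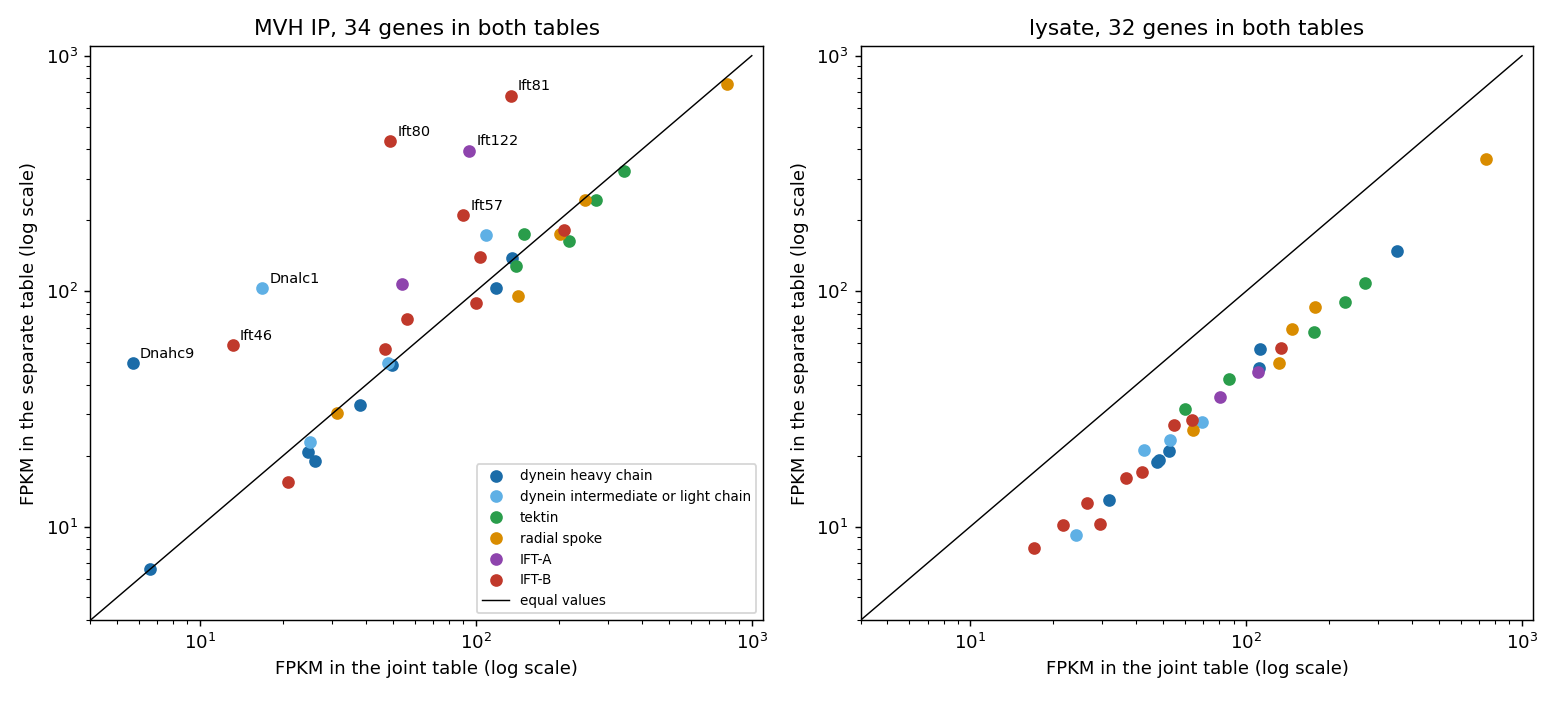
FPKM in the separate gene table against FPKM in the joint table (log axes) for MVH IP on the left and lysate on the right; the line marks equal values. For lysate all 32 genes lie below the line by a similar factor, while for MVH IP the 7 named genes lie at least 2.33 times above it.

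With both sides taken from the separate tables, 23 of 30 members were higher in MVH IP than in lysate and none lower, where 78.9% of all genes tested were higher and 0.473% lower; the members' median was 1.46 against 2.03. After centring 5 were higher and 7 lower, where 23.4% of all genes tested were higher and 21.8% lower. Ift140 was then at 107 FPKM in MVH IP against 45.4 in lysate, a log2 ratio of 1.22, and Rsph6a had 0.23, so neither kept its sign before centring. After centring Ift140 had -0.81 and Rsph6a -1.80, so both were still below the median of all genes tested, as in the joint table. Dnahc8 was at 103 FPKM in MVH IP against 148 in lysate in those tables.

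The sorted round spermatids give the levels in the cells that hold the chromatoid body. Of the round spermatid and late spermatid markers 5 of 5 each were listed in round spermatids, of the meiotic spermatocyte markers 5 of 6, of the multiciliated cell markers 1 of 5, and of the Sertoli, Leydig and spermatogonial markers none. The highest members there were Rsph1 at 378 FPKM, Tekt2 at 129, Ift81 at 127, Tekt1 at 113 and Tekt3 at 113. Dnahc8 was at 62.9 FPKM, while Dnahc5, Dnahc9, Dnahc11, Dnahc17, Rsph4a and Ift27 were not listed. Dnahc17 was at 47.3 FPKM in the separate lysate values. It was also not listed in the separate MVH IP values despite 49.98 FPKM in the joint ones, so absence is not read as a level.

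MVH IP against round spermatids could be taken for 31 members listed in both separate tables, and 22 were higher and 0 lower, where 75.4% of all genes tested were higher and 0.545% lower. The members' median log2 ratio was 1.17 against 1.85. After centring, 2 were higher and 8 lower, where 20.3% of all genes tested were higher and 21.5% lower. Ift20 was at 139 FPKM in MVH IP against 8.50 in round spermatids, a log2 ratio of 3.88, the highest of the 31. Ift80 was at 433 and 41.0 FPKM, but at 48.8 in the joint MVH IP column. The lowest centred values were those of Dnaic2 (-2.34), Rsph6a (-1.85), Ift140 (-1.85) and Ift46 (-1.80). Dnaic2 was at 23.0 FPKM in MVH IP against 32.5 in round spermatids.

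Round spermatids against lysate, again from separate tables, covered 31 members. Of these, 7 were higher in round spermatids and 3 lower, where 22.6% of all genes tested were higher and 3.61% lower; the median was 0.42 against 0.31. The higher ones were Ift46 (log2 ratio 2.66), Ift57 (2.36), Ift81 (2.19), Dnaic2 (1.71), Ift80 (1.305), Dnalc4 (1.26) and Ift140 (1.22). Ift46 was at 56.7 FPKM in round spermatids against 8.12 in lysate, and Ift57 at 56.8 and 10.3. The 3 lower genes were all heavy chains: Dnahc7b (-1.35), Dnahc8 (-1.22) and Dnahc1 (-1.21). Dnahc7b was at 21.5 FPKM in round spermatids against 56.5 in lysate, and Dnahc8 at 62.9 and 148. After centring, 4 members were higher and 3 lower, where 15.2% of all genes tested were higher and 8.04% lower. With the joint lysate column, whose values are higher, in place of the separate one, the members' median was -0.69 and that of all genes -0.70. Of 32 members, 2 were then higher and 12 lower, where 413 of 4900 genes tested were higher and 1790 lower. After centring 5 of 32 members were higher and 5 lower, where 19.5% of all genes tested were higher and 10.6% lower. Ift46, Ift57, Ift80 and Ift81 are also among the genes whose separate MVH IP value was over 2-fold its joint value, and what the file adds to their round spermatid values was not tested. Of the 2 round spermatid libraries behind the value, 1 came from RNA above 500 bp, and what that selection adds was not tested.

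HetMIWI round spermatids against round spermatids sets cells labelled heterozygous for MIWI, the piRNA-binding protein of spermatids, against cells with no such label, and it covered 21 members listed in both. Of these, 2 were higher in hetMIWI cells and 1 lower, where 12.7% of all genes tested were higher and 10.5% lower. Rsph3a was at 372 FPKM in hetMIWI round spermatids and 75.2 in round spermatids, a log2 ratio of 2.29, while its near copy Rsph3b was not listed in hetMIWI cells and was at 90.4 FPKM in round spermatids. Rsph1 and Dnahc8, at 378 and 62.9 FPKM in round spermatids, were not listed in hetMIWI cells either. Values are listed for 3187 genes in hetMIWI cells and for 4956 in round spermatids, so absence gives no level. Rsph9 was at 189 and 83.8 FPKM, a ratio of 1.17. Ift57 was the lower gene, at 11.7 and 56.8 FPKM, a ratio of -2.19, and Ift81, at 63.1 and 127 FPKM, lay just inside the bound at -0.998. The 5 tektins were all above 0, from 0.65 (Tekt5) to 0.97 (Tekt3), with a class median of 0.81 against 0.43 for all genes tested. Of the 2 round spermatid libraries, 1 came from RNA above 500 bp. Over all genes the Spearman correlation of this ratio with transcript length was -0.30. What size selection and length add to these ratios was not tested. After centring, 1 member was higher and 4 lower, where 3.59% of all genes tested were higher and 18.3% lower.

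**Figure D5:**
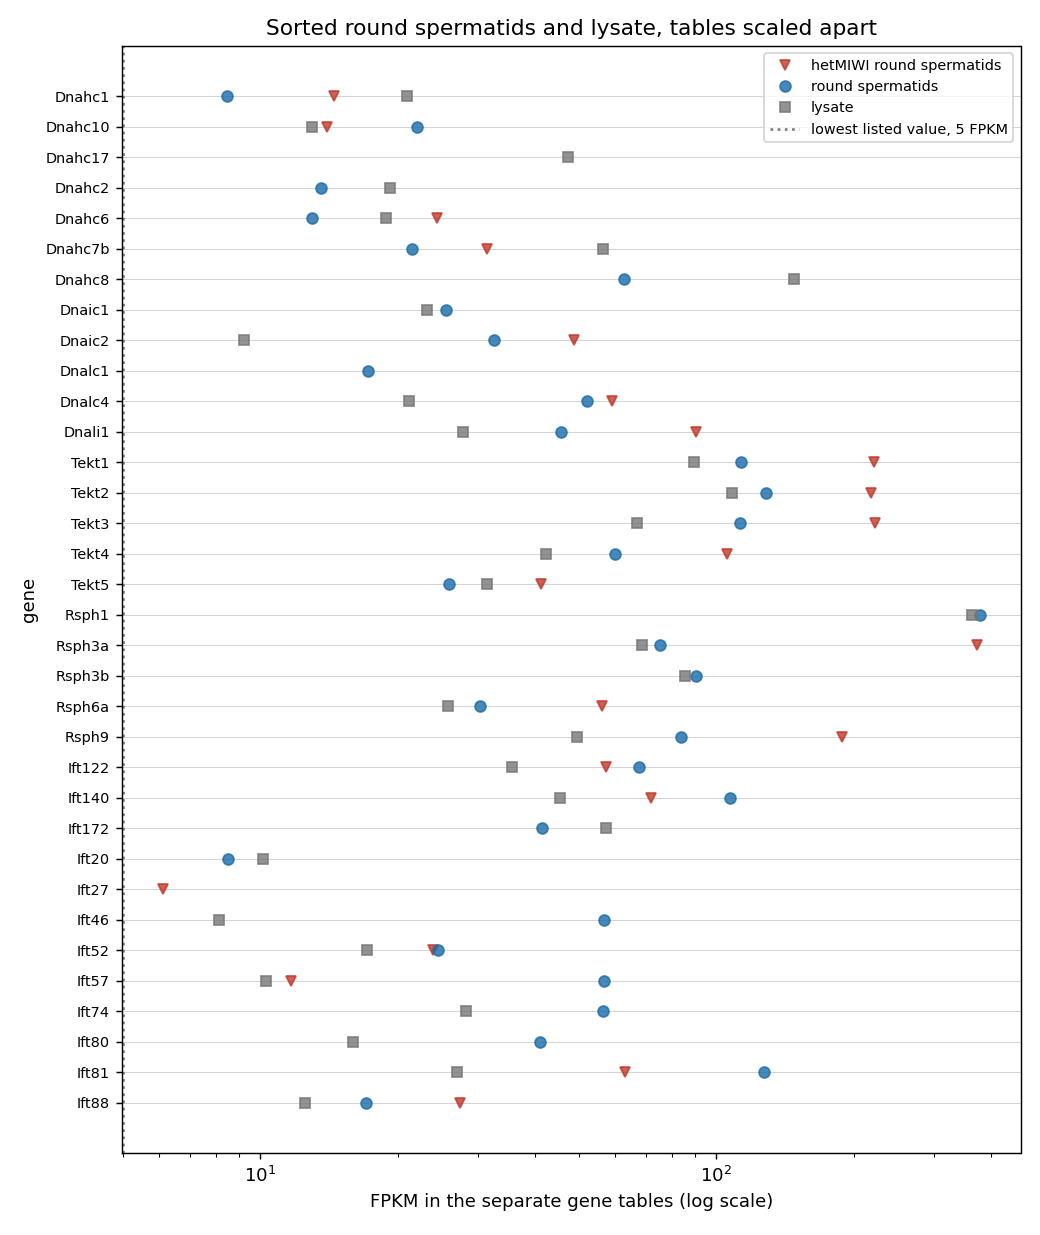
FPKM of the genes listed in the separate tables of hetMIWI round spermatids, round spermatids and lysate (log axis; 1 deposited value each, tables scaled apart, listed from 5 FPKM). Rsph3a and Ift57 show the widest gaps between hetMIWI and round spermatids, and Dnahc8, Dnahc7b and Dnahc1 lie left of lysate in round spermatids.

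Other genes of the axoneme and of its transport, which carry other symbols, were read from lists beside the members in the comparison of MVH IP with lysate. Of all genes tested in it, 47.3% were higher and 7.53% lower, and after centring 18.7% were higher and 20.6% lower. Factors that assemble dynein arms in the cytoplasm had 6 of 13 higher and 0 lower (2 and 2 after centring), with a median log2 ratio of 0.88; Pih1d2 was at 111 FPKM in MVH IP against 19.7 in lysate and Ccdc103 at 71.3 and 13.8, while Spag1 was at 25.6 and 35.1. Cytoplasmic dynein and light chains shared with it had 8 of 22 higher and 1 lower (3 and 3 after centring), with a median of 0.49. The lower one was Dync1h1, its heavy chain, at 43.8 FPKM in MVH IP against 121 in lysate, a ratio of -1.45. Dynlt1c, of a family of near copies, was at 154 and 260.3 FPKM and Dync1li2 at 37.8 and 48.9. These named genes are on the lower side, and the highest log2 ratio of the list was 2.64 (1.72 centred).

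Central pair genes had 3 of 12 higher and 0 lower (1 and 3 after centring), with a median of 0.41. Spef1 was at 90.5 FPKM in MVH IP against 9.60 in lysate, a ratio of 3.11, whereas Spag17 was at 57.5 and 92.1 and Spag16 at 82.1 and 117. Genes of the nexin-dynein regulatory complex and inner arm rulers had 5 of 16 higher and 1 lower (3 and 5 after centring), with a median of 0.79; Iqca was at 135 FPKM in MVH IP against 16.6 in lysate, Lrrc48 at 26.0 and 67.7, and Wdr78 at 23.6 and 35.1. IFT subunits under other symbols had 5 of 12 higher and 0 lower (1 and 1 after centring), with a median of 0.84. Ttc30b, an IFT-B subunit, was at 81.5 and 17.1 FPKM, and Ttc21b, an IFT-A subunit, at 57.8 and 66.5. Kinesin-2, the outward motor of IFT, had 1 of 4 higher and 0 lower (none after centring), with a median of 0.54. Partners in the doublets and tail had 5 of 25 higher and 2 lower (0 and 9 after centring), with a median of 0.09, and the 2 were the near copies Tuba3b (354 FPKM in MVH IP against 765 in lysate) and Tuba3a (374 and 769). Ak7, an adenylate kinase of the axoneme, was at 24.0 and 46.5 FPKM. Each of these lists had a median under the 0.92 of all genes tested.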

How the data were processed

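RNA-seq of 14 libraries in 9 groups was analysed from the deposited tables. Per the submitters' processing notes, TopHat and Cuffdiff were used with build mm9, with versions, read filters, strand use and scaling not given in the sources used here. FPKM, per the file headers, is the unit of all deposited values used: a joint table of 5 conditions and 4 gene tables with a floor of 5 FPKM, scaled apart by the authors. p-values and q-values in the authors' deposited table are Cuffdiff's. Library depth is unknown, so no interval is given. A small RNA column (1) was not used. The joint table repeats MVH IP in several pairs; no member's value differed among them, and elsewhere the highest was used. Log2 ratios of (FPKM + 1) were computed with pandas 2.3.3 and numpy 2.4.6 in Python 3.11.15, after a test on simulated data. The design allowed for 1 column per library; the values are pooled, so no test was run, as it provided for. Values in 5 conditions are printed for the 3 highest members of each class and for the 5 highest and 5 lowest centred ratios; from other lists, at most 3 genes past 2-fold after centring. Listed starts were raised by 1 base to count from 1. Lengths are GENCODE vM21 (GRCm38), matched for 38 of 38. The members and lists were chosen with earlier results of these data known.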

Additional observations from a re-analysis of the deposited data

How the results depend on the processing

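No paired analysis was possible because each condition has 1 deposited value. The pseudocount, the filters, values at 0 and the choice of MVH IP value moved no count of called members by over 1.5 times, except that for pellet2 a mean of at least 5 FPKM left 0 members, as did centring. Centring gave 10 for MVH IP against round spermatids (2 higher, 8 lower), again 10 with the joint MVH IP value centred (3 and 7; chosen after seeing the data), and 5 for hetMIWI against round spermatids. The separate tables gave 23 for MVH IP against lysate, with Ift140 at 1.22 and Rsph6a at 0.23. With centring they gave 12 (5 higher and 7 lower, chosen after seeing the data), with Ift140 at -0.81 and Rsph6a at -1.80. Separate lysate values were 0.35 to 0.52 times the joint ones in all 32 members listed. The cause of the difference between the 2 files was not tested. Called genes whose sign turned in MVH IP against round spermatids were, on centring, Dnahc1 (-0.77), Dnahc10 (-0.76), Dnahc6 (-0.57), Dnalc4 (-0.14), Ift172 (-0.78), Ift52 (-0.68), Ift74 (-0.18), Rsph1 (-0.85), Rsph3a (-0.65), Rsph3b (-0.44), Tekt1 (-0.76), Tekt2 (-0.53) and Tekt4 (-0.76). With the joint MVH IP value Dnalc1 was at -0.028, and with that value centred Dnahc10 (-0.20), Dnalc1 (-1.35), Dnalc4 (-0.28), Ift122 (-0.85), Ift172 (-0.072), Ift52 (-0.41), Ift57 (-0.67), Ift80 (-1.08), Ift81 (-1.25), Rsph1 (-0.22), Tekt1 (-0.066) and Tekt4 (-0.11) were below 0. For round spermatids against the joint lysate value, 2 members were higher and 12 lower, where 7 and 3 were called with the separate one. Of 4900 genes tested, 413 were higher and 1790 lower with the joint value. Ift140 was at -0.043 for round spermatids against the joint lysate value. Leaving out libraries was not run, since the files hold pooled values only.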

Other observations

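Cilium genes outside the axoneme were also read in MVH IP against lysate. The BBSome, a coat complex that moves receptors in and out of cilia, and the transition zone, the gate at the cilium base, were read together. Of 29 measured genes, 15 were higher in MVH IP and 1 lower, where 47.3% of all genes tested were higher and 7.53% lower. The median log2 ratio was 1.02 against 0.92 for all genes tested. Tctn3 was at 46.5 FPKM in MVH IP against 7.12 in lysate (log2 ratio 2.55) and Arl6 at 118 and 20.7 (2.45), the highest ratios of the list, both named after their values were seen. The lower gene was Cep164, which docks the centriole, at 17.9 FPKM in MVH IP against 37.0 in lysate. Rpgrip1 was at 38.9 FPKM in MVH IP against 75.4 in lysate, and Bbs9 at 17.7 and 32.1. After centring 6 were higher and 4 lower, where 18.7% of all genes tested were higher and 20.6% lower.

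Transcription factors of the ciliary program had 4 of 7 higher in MVH IP and 0 lower, where 47.3% of all genes tested were higher and 7.53% lower. Their median was 1.36, and after centring 1 was higher and 2 were lower, where 18.7% of all genes tested were higher and 20.6% lower. Foxj1, the factor that drives motile cilium genes, was at 94.0 FPKM in MVH IP against 11.2 in lysate, a log2 ratio of 2.96. Rfx2, needed for spermatid development in mice, was at 51.1 FPKM in MVH IP against 89.4 in lysate, and Fank1 at 143 and 170.0. These values have no replicate check.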
